A study of Mus musculus with 9 samples.

Results

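The claudins are the membrane proteins from which tight junction strands are built, and their transcripts were followed across 3 structures of the embryonic mouse kidney. All probe sets whose platform annotation names exactly 1 gene, and that gene a claudin of the family list (Cldn1, Cldn2, Cldn3, Cldn4, Cldn5, Cldn6, Cldn7, Cldn8, Cldn10 and Cldn11), were taken, whatever their values. This gave 17 probe sets of 10 genes, out of 22690 probe sets on the array. Renal vesicles (the first epithelial ball of a forming nephron), s-shaped bodies (the later stage that folds into glomerulus and tubule) and collecting ducts (the branched drainage tree that grows from the ureteric bud) were each represented by 3 Affymetrix MOE430A arrays, 1 sample per array. All embryos were wild-type mice of strain 129 at E14.5 (Theiler stage 22), of unknown sex and without treatment. A sample of renal vesicles or of s-shaped bodies held 20 microdissected structures in 1 pool, while the collecting ducts were not pooled (pool size 1), so pool size and structure cannot be told apart. The labels call each sample a biological replicate without saying whether they came from separate embryos, and p-values measure only the spread between these samples.

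A claudin crosses the membrane several times, and its outer loops meet those of claudins on the neighbouring cell. Some claudins seal the space between cells, while others, such as Cldn2 and Cldn10, form pores for small ions. In the mature kidney the set changes along the tubule, with Cldn2 in the proximal tubule, Cldn10 in the loop of Henle, and Cldn3, Cldn4, Cldn7 and Cldn8 in the distal nephron and collecting duct. Cldn5 is the main claudin of endothelium and is also made by podocytes, the filtering epithelial cells of the glomerulus.

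The arrays were first set against marker genes of each structure and of cells that could be carried along. The summed intensity of 10 collecting duct markers was 37540 to 50810 in collecting duct arrays, 2374 to 4569 in renal vesicle arrays and 1369 to 1406 in s-shaped body arrays. Among these markers the keratin Krt8 and the adhesion protein Cdh1 were far higher in collecting duct than in renal vesicle (log2 differences of renal vesicle minus collecting duct -4.49 and -2.10), whereas the ureteric genes Ret and Hoxb7 and the water channel Aqp2 passed no test against it. Wnt11, a gene of ureteric tips, went the other way and was higher in renal vesicle (178.3 to 448.5) than in collecting duct (92.58 to 124.3, log2 difference 1.55, adjusted p = 0.0083). The sum of 7 urothelium markers was also highest in collecting duct, at 13210 to 15650 against 438.8 to 681.2 elsewhere, and rested mostly on the transcription factor Foxa1 (8822 to 11510 in collecting duct arrays). Trp63 (1760 to 2985 in collecting duct, 34.32 to 82.68 elsewhere), Upk3a (477.2 to 769.4, and 8.22 to 46.79 elsewhere) and Upk3b were also higher in collecting duct than in both nephron structures. The other 3 urothelium markers were not called against collecting duct. The s-shaped body arrays carried the highest sums for podocyte (42240 to 49600), stroma (19970 to 26940), erythroid (18330 to 21980) and endothelium markers (10720 to 12520). Lhx1, a defining gene of the early nephron, read 1727 to 2129 in renal vesicles but only 81.53 to 97.13 in s-shaped bodies. Renal vesicle replicate 3 stood apart from the others of its structure, with a podocyte sum of 6148 against 817.8 and 854.6, and a collecting duct sum of 2374 against 3466 and 4569. The part that these other cells play in the claudin values below was not tested.

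Of the 10 claudins followed, all but Cldn10 differed between structures. Against collecting duct, 3 of 10 claudins (Cldn1, Cldn2 and Cldn5) were higher and 6 (Cldn3, Cldn4, Cldn6, Cldn7, Cldn8 and Cldn11) were lower in renal vesicles. The s-shaped bodies gave the same members in the same directions. From renal vesicle to s-shaped body only Cldn5 rose, while Cldn6, Cldn7 and Cldn11 fell. Cldn10 passed the test in no comparison. A gene is counted here by its brightest probe set and is called higher or lower where limma's adjusted p was under 0.05. Differences are given on the log2(intensity + 26) scale after quantile normalization, with the standard error, and they understate the change of dim genes.

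Among all 22626 probe sets tested, 7.83% were called higher and 7.49% lower in renal vesicle than in collecting duct. The shares were 8.8% and 7.83% for s-shaped body against collecting duct, and 9.45% and 9.15% for s-shaped body against renal vesicle. Many probe sets on the array are dim, and of those above their own array's median in at least 3 arrays, 28.4%, 28.6% and 33.6% were called in either direction in the same order of comparisons. The 9 called of 10 claudins in each comparison with collecting duct stood well above either share, and the 4 of 10 between the nephron stages lay closer to the last. The 10 members were chosen with earlier results of these data known, so this excess is a description and not a test. Of 9 further claudin genes on the array, 1 was lower in renal vesicle than in collecting duct. In s-shaped body 1 of them was higher and 1 lower than in collecting duct. On the normalized scale the same 9 claudins had non-overlapping groups against collecting duct in each nephron structure, where 31.1% and 31.7% of all probe sets did, and 5 had them between the nephron stages, where 37.3% did. The moderated F test over the 3 structures passed for 9 claudins, all but Cldn10, and for 26.1% of probe sets. The median log2 difference over the 10 claudins was -1.22 for renal vesicle minus collecting duct, -2.02 for s-shaped body minus collecting duct and -0.63 for s-shaped body minus renal vesicle. Over all probe sets these medians were 0.00, -0.04 and -0.04, and with other scalings they lay between -0.11 and 0.06. Both comparisons with collecting duct use the same 3 collecting duct arrays, so their agreement is not independent. In such pooled tissue, fewer cells of a type and less RNA per cell cannot be told apart.

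**Figure D1:**
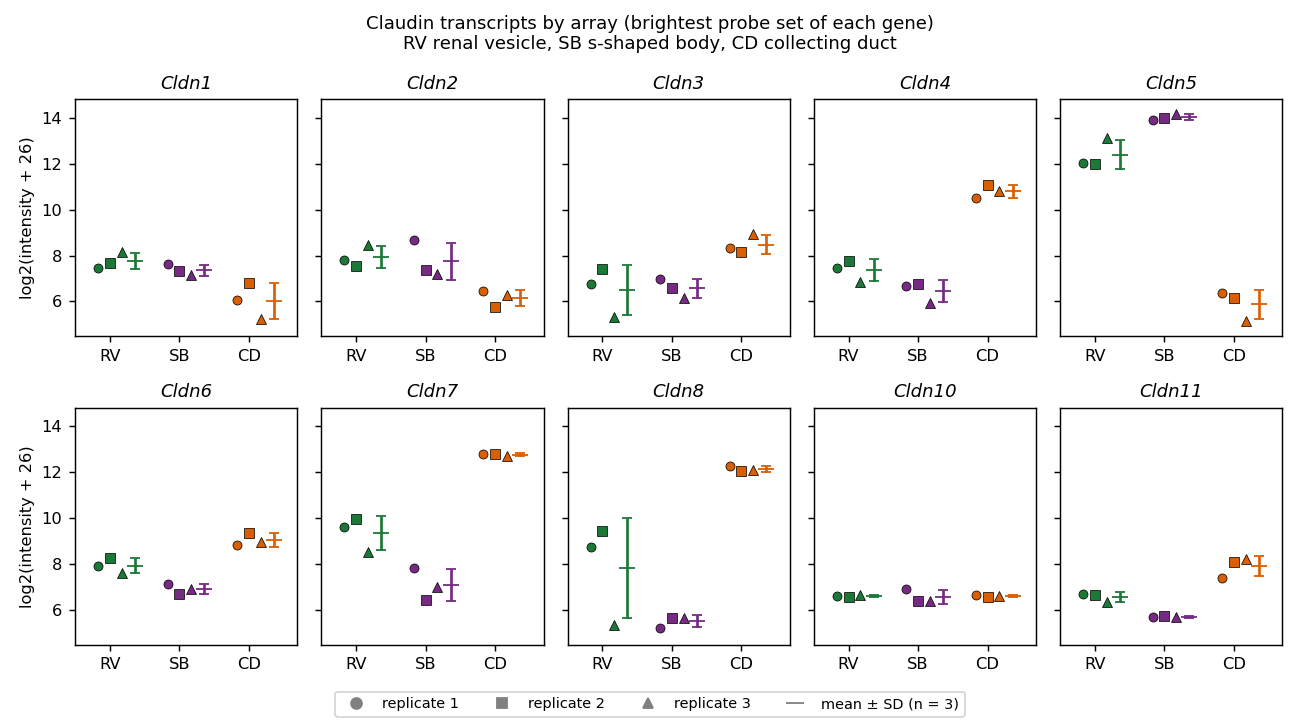
Quantile-normalized log2(intensity + 26) of the brightest probe set of each of the 10 claudins, 1 symbol per array (circle, square and triangle for replicates 1, 2 and 3) with the mean and SD of the 3 arrays of a structure beside them. Cldn4, Cldn7 and Cldn8 sat highest in collecting duct, and Cldn5 averaged 12.39 in renal vesicle and 14.03 in s-shaped body against 5.88 in collecting duct.

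**Figure D2:**
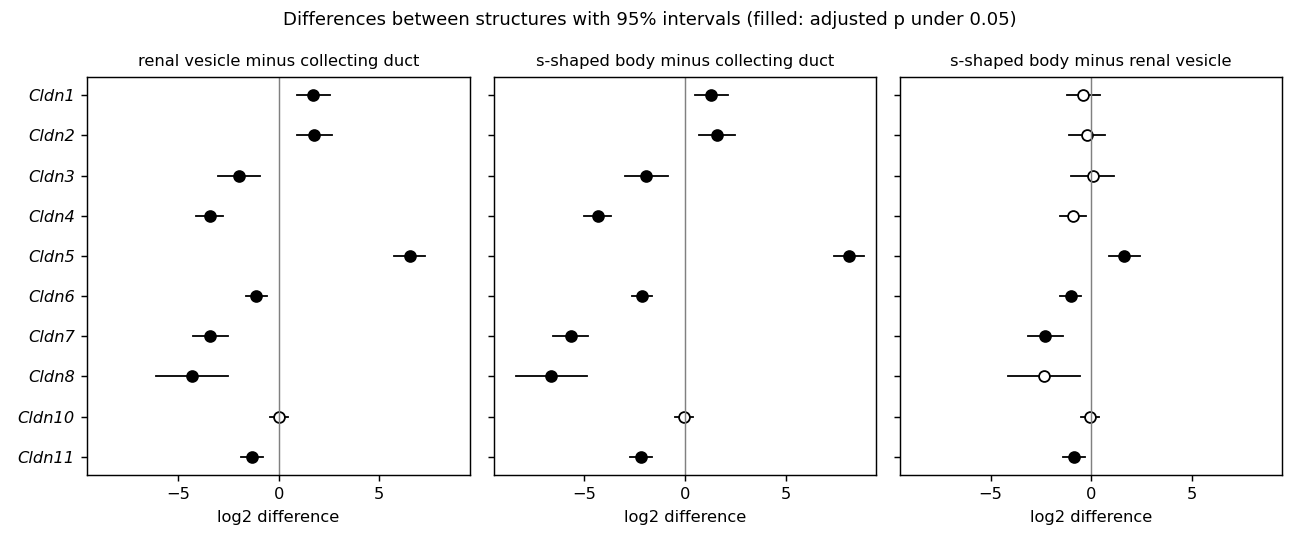
Log2 difference of each claudin in the 3 comparisons of structures, with bars for the 95% confidence interval of the limma fit over 9 arrays and filled circles where the adjusted p was under 0.05. Cldn5 lay furthest above 0 and Cldn8 furthest below 0 in both comparisons with collecting duct, and Cldn10 lay near 0 in all 3.

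Promoter sequence was available for 9 of the 10 claudins, from RefSeq on build GRCm38.p6. In this region regulators of epithelial genes can act: the repressors Zeb1, Zeb2, Snai1, Snai2 and Twist1 bind E-boxes, and the grainyhead factors, among them Grhl2, activate epithelial junction genes. The 250 bases before the start site are shown for the claudins that carry an E-box or a grainyhead motif there. The E-box is CAGGTG, or CACCTG on the other strand, and the grainyhead motif is AACNGGTT, or AACCNGTT on the other strand. Capitals mark these motifs, and all sequences read 5′ to 3′ on the strand of the gene. The Cldn7 window belongs to the second of its listed start sites.
Cldn4, chr5:134946935-134947184, minus strand: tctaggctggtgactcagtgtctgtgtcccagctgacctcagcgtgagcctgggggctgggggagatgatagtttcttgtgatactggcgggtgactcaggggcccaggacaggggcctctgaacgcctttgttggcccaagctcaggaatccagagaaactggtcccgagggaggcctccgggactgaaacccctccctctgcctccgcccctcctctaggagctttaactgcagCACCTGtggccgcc
Cldn6, chr17:23679115-23679364, plus strand: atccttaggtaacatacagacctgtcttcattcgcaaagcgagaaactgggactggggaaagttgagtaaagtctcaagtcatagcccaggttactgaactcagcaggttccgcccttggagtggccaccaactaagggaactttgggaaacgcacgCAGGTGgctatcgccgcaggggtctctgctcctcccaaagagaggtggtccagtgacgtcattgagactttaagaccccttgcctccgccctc
Cldn7, chr11:69965171-69965420, plus strand: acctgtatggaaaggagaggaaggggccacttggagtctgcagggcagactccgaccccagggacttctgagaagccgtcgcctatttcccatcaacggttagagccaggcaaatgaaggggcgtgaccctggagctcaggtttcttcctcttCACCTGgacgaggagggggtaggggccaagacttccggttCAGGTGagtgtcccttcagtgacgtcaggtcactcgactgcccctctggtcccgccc
Cldn5, chr16:18776597-18776846, plus strand: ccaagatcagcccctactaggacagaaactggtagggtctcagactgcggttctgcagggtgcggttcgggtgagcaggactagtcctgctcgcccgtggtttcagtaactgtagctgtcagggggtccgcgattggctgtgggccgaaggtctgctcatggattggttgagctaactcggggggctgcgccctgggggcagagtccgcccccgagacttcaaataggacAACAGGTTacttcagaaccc
The E-box began 14 bases before the start site in Cldn4, 93 bases before it in Cldn6, and 97 and 57 bases before it in Cldn7. Further E-boxes lay after the start site, beginning at base 12 in Cldn4, base 41 in Cldn6 and base 32 in Cldn3. In windows of 300 bases that run past the start site, 4 of 11 claudin promoters held an E-box, against 20.2% of 32851 promoters. The grainyhead motif lay 20 bases before the start of Cldn5, the only claudin window that held it, and 2.09% of all promoters did. The HNF1 motif was in 0 of the 11 windows and in 3 of all promoters. Among the claudins lower in both nephron structures, Cldn3 and Cldn11 had no E-box before the start site, and Cldn8 had no sequence. Cldn5, with the grainyhead motif, was higher in the nephron structures, where Grhl2 was lower. Grhl1, also a grainyhead factor, was higher in renal vesicle than in collecting duct (log2 difference 1.00, adjusted p = 0.0061). In s-shaped body Grhl1 was not called against collecting duct (0.09, adjusted p = 0.81). A match describes the letters in the window and is not a site of binding, and no link between motifs and expression was tested.

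Cldn3, Cldn4, Cldn7 and Cldn8, claudins of the distal nephron and collecting duct, were all higher in collecting duct than in either nephron structure. Cldn8, which cooperates with Cldn4 in the chloride permeability of collecting duct cells, read 4630, 4140 and 4439 in collecting duct arrays. Its intensity was 383.6, 652.7 and 13.41 in renal vesicles and 10.54, 24.6 and 27.99 in s-shaped bodies. The s-shaped body arrays were thus all about as dim as the lowest renal vesicle array, and neither structure overlapped collecting duct. Cldn8 was lower by a log2 difference of -4.29 (SE 0.80, adjusted p = 0.0049) in renal vesicle and -6.63 (SE 0.80, adjusted p = 0.00021) in s-shaped body than in collecting duct. Its spread within renal vesicles was the widest of the family, with a mean of 7.86 ± 2.18 log2 units (SD, n = 3), because replicate 3 lay far below the others. Without that array the difference of renal vesicle from collecting duct was -3.04 (adjusted p = 5.2e-05).

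Cldn7, which lies both in tight junctions and along the sides of epithelial cells, read 6154, 6759 and 7183 in collecting duct arrays. It was 752.7, 935.8 and 325.3 in renal vesicles and 208.7, 59.69 and 111.4 in s-shaped bodies. The 3 structures formed 3 separate steps, and the collecting duct arrays averaged 12.77 ± 0.06 log2 units (SD, n = 3). The difference from collecting duct was -3.39 (SE 0.39, adjusted p = 0.00024) in renal vesicle, 10.5-fold, and -5.68 (SE 0.39, adjusted p = 4.1e-06) in s-shaped body, 51.4-fold. Cldn4, whose promoter holds an E-box next to the start site, read 1489, 2121 and 1713 in collecting duct arrays. Renal vesicles gave 133.7, 182.5 and 83.54 and s-shaped bodies 76.98, 84.19 and 38.27, so the nephron structures lay close together and far below collecting duct. Cldn4 was 10.8-fold lower in renal vesicle (log2 difference -3.43, SE 0.30, adjusted p = 3.5e-05) and 20.1-fold lower in s-shaped body (-4.33, SE 0.30, adjusted p = 4e-06).

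Cldn3, the neighbour of Cldn4 on chromosome 5 with 0 protein-coding genes between them, showed a smaller difference. Its brightest probe set (1434651_a_at) read 298, 267.4 and 465.6 in collecting duct arrays, 70.41, 138.7 and 12.2 in renal vesicles and 101.2, 70.43 and 48.14 in s-shaped bodies. The nephron structures overlapped each other widely and neither reached collecting duct. The log2 differences from collecting duct were -1.98 in renal vesicle (SE 0.48, adjusted p = 0.018) and -1.91 in s-shaped body (SE 0.48, adjusted p = 0.019). Both were lost without collecting duct replicate 3 (adjusted p = 0.055 and 0.057), and the second also without s-shaped body replicate 2 (adjusted p = 0.057) or 3 (adjusted p = 0.076). The probe set 1451701_x_at was lower than collecting duct in both structures as well (-1.88, adjusted p = 0.0074, and -2.91, adjusted p = 0.00035). The probe set 1460569_x_at was lower only in s-shaped body (-3.06, adjusted p = 0.0044, against adjusted p = 0.086 in renal vesicle), a gap between the structures that passed no test (adjusted p = 0.14). The last one, 1426332_a_at, was dim on every array (4.55 to 30.46) and passed no test.

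Cldn6 and Cldn11 were also higher in collecting duct, with smaller differences than Cldn4, Cldn7 and Cldn8. Cldn6 is a claudin of embryonic epithelia that is largely switched off in the adult. It read 438.1, 641.3 and 468.8 in collecting duct arrays, 195, 271.2 and 157.3 in renal vesicles and 116, 77.53 and 104 in s-shaped bodies, so that no group overlapped another. Against collecting duct it was 2.17-fold lower in renal vesicle (-1.12, SE 0.23, adjusted p = 0.0086) and 4.39-fold lower in s-shaped body (-2.14, SE 0.23, adjusted p = 9.8e-05). Cldn11, known from the myelin of the brain and from Sertoli cells of the testis, read 141.1, 258.3 and 277.2 in collecting duct arrays. Renal vesicles gave 68.34, 71.25 and 50.68 and s-shaped bodies 24.1, 28.16 and 28.05, again in 3 separate groups at low intensity. Its differences from collecting duct were -1.33 in renal vesicle (SE 0.25, adjusted p = 0.0047) and -2.20 in s-shaped body (SE 0.25, adjusted p = 0.00012). The myelin gene Mbp moved the same way, at 625.4 to 862.5 in collecting duct arrays, 138.4 to 251.1 in renal vesicles and 15.04 to 120 in s-shaped bodies. Sox10, the other myelin and glia marker measured, was not called in renal vesicle (-0.07, adjusted p = 0.90) or s-shaped body (-0.16, adjusted p = 0.75) against collecting duct, and the part of such cells in the Cldn11 values was not tested. Without renal vesicle replicate 3 and collecting duct replicate 2 together, the renal vesicle differences of Cldn6 (-0.80, adjusted p = 0.11) and Cldn11 (-1.11, adjusted p = 0.066) were not called.

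Against collecting duct, Cldn5 had a larger difference than any of the other 9 claudins. It read 53.07, 50.12 and 10.99 in collecting duct arrays, 4449, 4178 and 9700 in renal vesicles and 14830, 14930 and 20530 in s-shaped bodies. The 3 structures were far apart, and within renal vesicles replicate 3 was the highest. Cldn5 exceeded collecting duct 91.3-fold in renal vesicle (log2 difference 6.51, SE 0.34, adjusted p = 1.5e-06) and 284-fold in s-shaped body (8.15, SE 0.34, adjusted p = 2.1e-07). These calls held in all 23 alternatives, with log2 differences of 5.78 to 7.03 and 7.41 to 8.67. Markers of the cell types known to make Cldn5 did not move as one. The sum of 10 endothelium markers was 565.8 to 962.3 in renal vesicles and 600.9 to 892.1 in collecting duct, 2 ranges that overlap, and only 1 of the 10, the receptor Tek, was higher in renal vesicle (log2 difference 1.38, adjusted p = 0.013). All 10 were higher in s-shaped body than in either other structure. Of all probe sets, 7.83% were called higher in renal vesicle than in collecting duct. For s-shaped body these shares were 8.8% against collecting duct and 9.45% against renal vesicle. The receptor Kdr read 102.3, 129.6 and 87.38 in renal vesicles, 2584, 2181 and 2735 in s-shaped bodies and 90.72, 86.86 and 121.5 in collecting duct. Podxl, a podocyte and endothelium surface protein, read 248.2, 247.3 and 3018 in renal vesicles, 19490 to 25440 in s-shaped bodies and 146.5 to 182.5 in collecting duct. The sum of 5 podocyte markers was 817.8 to 6148 in renal vesicles and 557.8 to 597.2 in collecting duct, ranges that do not overlap. Of these 5 only Tcf21, a transcription factor of podocytes and stroma, was called higher in renal vesicle than in collecting duct (log2 difference 3.24, adjusted p = 0.00041), and all 5 were higher in s-shaped body. The part of these cells in the Cldn5 values was not tested.

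**Figure D3:**
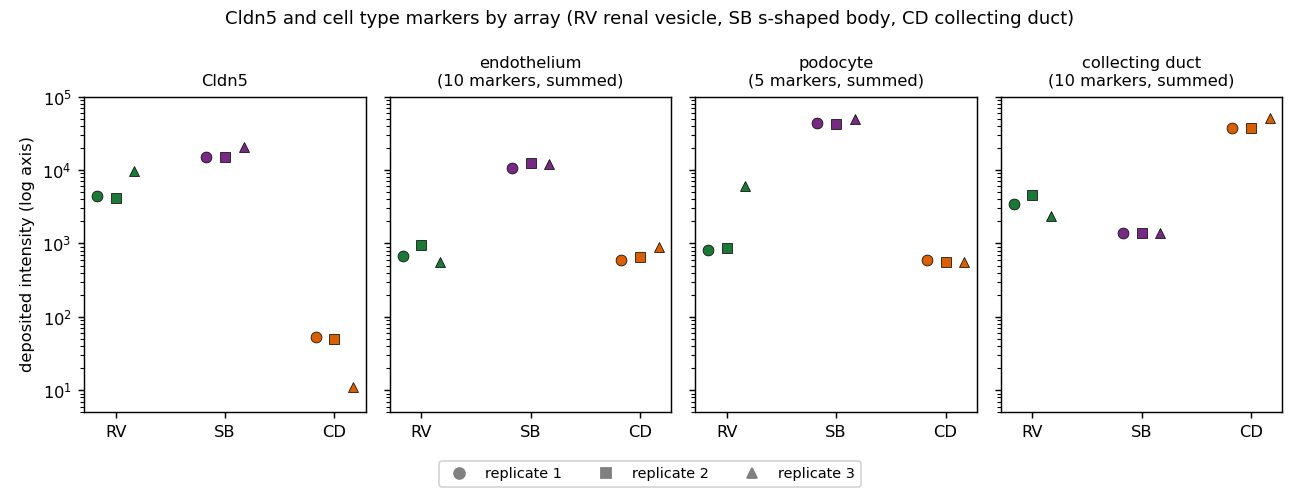
Deposited intensity of Cldn5 on each of the 9 arrays beside the summed intensity of endothelium, podocyte and collecting duct markers, on a log axis, with 1 symbol per array. Cldn5 was at 4178 or above in all 3 renal vesicle arrays, where the endothelium sum stayed between 565.8 and 962.3, against 600.9 to 892.1 in collecting duct arrays.

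The gene whose profile over the 9 arrays came nearest to that of Cldn5 was Wt1, a transcription factor of nephron progenitors and podocytes, with a mean absolute difference of 0.44 log2 units after each gene was centred on its own mean. Wt1 read 2209, 1638 and 3730 in renal vesicles, 5569, 4530 and 5192 in s-shaped bodies and 7.05, 5.05 and 31.96 in collecting duct. Like Cldn5, it was highest among renal vesicles in replicate 3. The next were Enpep, an aminopeptidase, at 0.82 and Plat, tissue plasminogen activator, at 0.93.

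Cldn1 and Cldn2 were modestly higher in the nephron structures. Cldn2, the cation and water pore of the proximal tubule, read 176.9, 151.1 and 313.7 in renal vesicles, 392.5, 141.5 and 130.3 in s-shaped bodies and 58.17, 33.73 and 59.93 in collecting duct. The nephron structures overlapped each other and neither overlapped collecting duct. Its log2 difference from collecting duct was 1.78 in renal vesicle (SE 0.40, adjusted p = 0.013) and 1.59 in s-shaped body (SE 0.40, adjusted p = 0.021). Leaving out collecting duct replicate 2 ended both calls (adjusted p = 0.057 and 0.082), and leaving out s-shaped body replicate 1 (1.12, adjusted p = 0.055) or averaging its probe sets (0.61, adjusted p = 0.10) ended the second. Its other probe set, 1417232_at, passed no test, with -0.11 for renal vesicle minus collecting duct and -0.37 for s-shaped body minus collecting duct.

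Cldn1, a sealing claudin found in the parietal layer of the glomerular capsule, read 131.7, 167.9 and 241.2 in renal vesicles, 176.7, 134.4 and 124.3 in s-shaped bodies and 37.91, 94.43 and 13.82 in collecting duct. The collecting duct arrays differed widely among themselves, yet each lay below every nephron array. The log2 difference from collecting duct was 1.71 in renal vesicle (SE 0.37, adjusted p = 0.0098) and 1.32 in s-shaped body (SE 0.37, adjusted p = 0.032). The second call was lost on leaving out any 1 of the s-shaped body arrays (adjusted p = 0.11, 0.08 and 0.059 without replicates 1, 2 and 3) or collecting duct replicate 1 or 3 (adjusted p = 0.071 each), with array weights (0.81, adjusted p = 0.077) and in a fit of only these structures (adjusted p = 0.057). The other 3 probe sets of Cldn1 were below their array's median on all arrays and passed no test, with log2 differences from collecting duct of 0.00 to 0.38 in renal vesicle and -0.07 to 0.26 in s-shaped body. Averaged over all 4 probe sets, Cldn1 was not called in renal vesicle (0.60, adjusted p = 0.077) or s-shaped body (0.38, adjusted p = 0.27).

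Cldn10, the ion pore of the loop of Henle and other tubule segments, showed no difference beyond its spread after normalization. It read 60.49, 65.61 and 68.91 in renal vesicles, 95.3, 59.38 and 61.97 in s-shaped bodies and 71.69, 76.07 and 85.94 in collecting duct, below the array's median on every array. The log2 difference of renal vesicle minus collecting duct was 0.00 with a 95% confidence interval from -0.45 to 0.45, and that of s-shaped body minus collecting duct was -0.05 with an interval from -0.50 to 0.40. The F test over the 3 structures gave an adjusted p of 0.98.

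**Figure D4:**
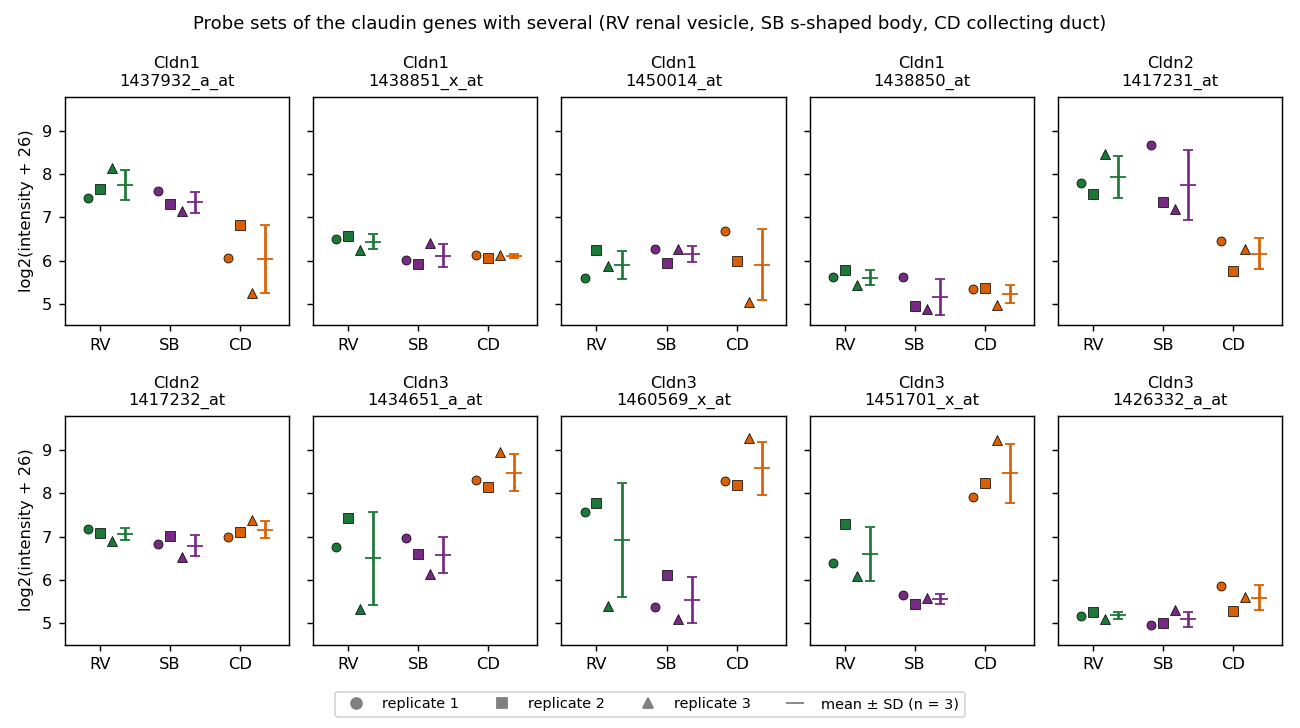
Quantile-normalized log2(intensity + 26) on each array for every probe set of Cldn1, Cldn2 and Cldn3, the claudins with more than 1 probe set, with the mean and SD of the 3 arrays of a structure. The nephron structures lay above collecting duct in the brightest probe set of Cldn1 and of Cldn2, and 2 of the 4 Cldn3 probe sets were called lower in renal vesicle than in collecting duct (-1.98 and -1.88).

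Between the nephron stages, the question was how the claudins of the renal vesicle differ from those of the s-shaped body. Cldn5 rose 3.11-fold (log2 difference 1.64, SE 0.34, adjusted p = 0.0077), with all s-shaped body arrays above all renal vesicle arrays. Cldn7 fell 4.88-fold (-2.29, SE 0.39, adjusted p = 0.0024), and both calls held in all 23 alternatives. Cldn6 fell 2.02-fold (-1.02, SE 0.23, adjusted p = 0.012), a call lost without renal vesicle replicate 2 (adjusted p = 0.054) or s-shaped body replicate 2 (adjusted p = 0.052). Cldn11 fell 1.83-fold (-0.87, SE 0.25, adjusted p = 0.032), a call lost without renal vesicle replicate 1 (adjusted p = 0.11) or 2 (adjusted p = 0.10) or any 1 of the s-shaped body arrays (adjusted p = 0.078 to 0.089), and also with a pseudocount of 64 (-0.57, adjusted p = 0.065) or no further normalization (-0.75, adjusted p = 0.071). Cldn4 gave -0.90 (SE 0.30, adjusted p = 0.062, 95% confidence interval -1.56 to -0.24), with groups that did not overlap after normalization but did in the deposited intensities (83.54 in the lowest renal vesicle against 84.19 in the highest s-shaped body). Cldn8 gave -2.34 (SE 0.80, adjusted p = 0.072) with groups that overlapped, since renal vesicle replicate 3 lay among the s-shaped bodies. Without renal vesicle replicate 3, both Cldn4 (-1.15, adjusted p = 0.025) and Cldn8 (-3.58, adjusted p = 1.9e-05) were lower in s-shaped body. The 95% confidence intervals of the remaining claudins reached from -1.21 to 0.42 for Cldn1, from -1.08 to 0.70 for Cldn2, from -0.99 to 1.12 for Cldn3 and from -0.50 to 0.41 for Cldn10. The intervals of the first 3 of these thus reached a fall of about 1 log2 unit. Only that of Cldn3 also reached a rise of that size.

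Some claudins resembled each other in profile over the 9 arrays. Cldn6 and Cldn11 were the closest pair, at a mean absolute centred difference of 0.18 log2 units, followed by Cldn1 with Cldn2 (0.44), Cldn3 with Cldn11 (0.51), Cldn3 with Cldn6 (0.53), Cldn4 with Cldn7 (0.61), Cldn1 with Cldn10 (0.69) and Cldn7 with Cldn8 (0.75). Among all genes, the nearest to Cldn8 was Esrp1, an epithelial splicing regulator, at 0.18. Esrp1 read 418.2, 699 and 7.44 in renal vesicles, so it was lowest in replicate 3 as Cldn8 was, and 3997, 3618 and 2915 in collecting duct. Nearest to Cldn7 were the kinase Ripk4 (0.23), the cilium protein Pkhd1 (0.31) and the transcription factor Ehf (0.33). Nearest to Cldn4 were Il17re, an interleukin receptor (0.25), and Sprr2f (0.28). For Cldn6 they were Bdh1 (0.15) and Hoxd9 (0.15), for Cldn3 Mfsd6l (0.25), for Cldn11 Nfkbiz (0.17), for Cldn1 Myef2 (0.17) and for Cldn2 Gas1 (0.28). All profiles share the same 9 arrays, and these distances are descriptions.

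Other claudins on the array were mostly uncalled. Of 9 further genes with a claudin name, Cldn23 was far lower than collecting duct in renal vesicle (-4.53, SE 0.29, adjusted p = 5.1e-06) and s-shaped body (-4.68, adjusted p = 2.1e-06), reading 1201 to 1870 in collecting duct arrays and 18.29 to 52.57 elsewhere. Cldn15, a cation pore known from the intestine, was higher in s-shaped body (377 to 627) than in collecting duct (108.7 to 134.5, log2 difference 1.77, adjusted p = 0.00032) or renal vesicle (88.33 to 136.2, 1.82, adjusted p = 0.00035). The remaining 7, among them Cldn16 and Cldn19 of the thick ascending limb, were called in none of the 3 comparisons.

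Transcripts of other tight junction genes, polarity genes and claudin regulators were split. Of 33 genes for membrane partners, scaffolds, polarity proteins and regulators, 4 were higher and 14 lower in renal vesicle than in collecting duct, 7 higher and 14 lower in s-shaped body than in collecting duct, and 7 higher and 7 lower in s-shaped body than in renal vesicle. Their median log2 differences were -0.58, -0.30 and -0.05 in that order. In the same order, 28.4%, 28.6% and 33.6% of probe sets above their own array's median in at least 3 arrays were called in either direction. Of all probe sets, 7.83% were higher and 7.49% lower, then 8.8% and 7.83%, then 9.45% and 9.15%. The lists were chosen with earlier results of these data known, so these counts are descriptions. Occludin (Ocln), the classic strand protein beside claudins, read 1287 to 2369 in collecting duct, 98.75 to 330.4 in renal vesicle and 29.91 to 78.73 in s-shaped body, with log2 differences from collecting duct of -2.98 (SE 0.38, adjusted p = 0.00047) and -4.69 (SE 0.38, adjusted p = 1.2e-05). Epcam, which binds Cldn7 and stabilises it, was lower by -2.26 (SE 0.30, adjusted p = 0.00065) and -5.93 (SE 0.30, adjusted p = 7.1e-07) and fell further from renal vesicle to s-shaped body (-3.67, SE 0.30, adjusted p = 2.6e-05). The serine proteases St14 and Prss8 and their inhibitors Spint1 and Spint2, which act on Epcam and Cldn7 in epithelia, were lower in both nephron structures, by -1.83 to -2.67 in renal vesicle and -2.95 to -4.05 in s-shaped body.

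The scaffolds inside the junction were mixed. Of 9, 3 were higher and 2 lower in renal vesicle than in collecting duct, and 4 were higher and 2 lower in s-shaped body. Tjp1 read 8713 to 9587 in s-shaped body, above collecting duct (2963 to 3535, log2 difference 1.49, adjusted p = 4.8e-05) and above renal vesicle (2249 to 3155, 1.83, adjusted p = 2.3e-05). The paracingulin gene Cgnl1 was higher in renal vesicle (1.07, adjusted p = 0.002) and s-shaped body (2.92, adjusted p = 1.6e-06) than in collecting duct. Tjp3 (-1.16, adjusted p = 0.029, and -1.44, adjusted p = 0.0085) and Patj (-1.21, adjusted p = 0.0018, and -1.10, adjusted p = 0.0024) were lower in both. Esam, an adhesion molecule of endothelial junctions, was higher in s-shaped body than in collecting duct (2.54, adjusted p = 2.7e-05), with -0.05 (adjusted p = 0.93) in renal vesicle, and the endothelium sum moved with it. Among 7 polarity genes, 3 were lower than collecting duct in each nephron structure and 0 were higher. Of probe sets above their own array's median in at least 3 arrays, 28.4% in renal vesicle and 28.6% in s-shaped body were called against collecting duct. Counts in lists of 9 scaffolds and 7 polarity genes are descriptions beside these shares.

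Transcription factors known to control claudin genes moved in 2 directions. Of 10 epithelial activators, 6 were lower and 2 higher in renal vesicle than in collecting duct, and 5 were lower and 0 higher in s-shaped body. Grhl2, an activator of Cldn4 in kidney duct cells, read 566 to 719 in collecting duct, 109.6 to 155.3 in renal vesicle and 52.27 to 109.2 in s-shaped body, with log2 differences of -2.07 (SE 0.25, adjusted p = 0.0003) and -2.77 (SE 0.25, adjusted p = 2.2e-05). Ehf was lower by -3.33 and -5.49. The 2 that were higher in renal vesicle than in collecting duct were Grhl1, also a grainyhead factor (log2 difference 1.00, adjusted p = 0.0061), and Hnf4a (2.22, adjusted p = 0.0066). Of 5 repressors that bind E-boxes, 3 were higher in renal vesicle and 4 in s-shaped body than in collecting duct, and 0 were lower. In these 2 comparisons 28.4% and 28.6% of probe sets above their own array's median in at least 3 arrays were called in either direction. Counts in such short lists are descriptions. Zeb1 read 69.91 to 91.17 in collecting duct, 357.4, 429.1 and 1041 in renal vesicle and 3671 to 4584 in s-shaped body, with log2 differences of 2.54 (SE 0.31, adjusted p = 0.00034) and 5.39 (SE 0.31, adjusted p = 1.3e-06). Among renal vesicles, replicate 3 was highest for Zeb1 and Snai1 (64.71) and lowest for Snai2 (49.9) and Twist1 (4.19). Zeb2 in that array (48.65) lay between the others. Cldn3, Cldn4, Cldn6, Cldn7, Cldn8 and Cldn11 were lowest in replicate 3, and a link to the repressors was not tested. Stroma marker sums moved with these repressors, at 898.7 to 2310 in renal vesicle, 19970 to 26940 in s-shaped body and 490.3 to 757 in collecting duct, and their part in the repressor values was not tested.

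**Figure D5:**
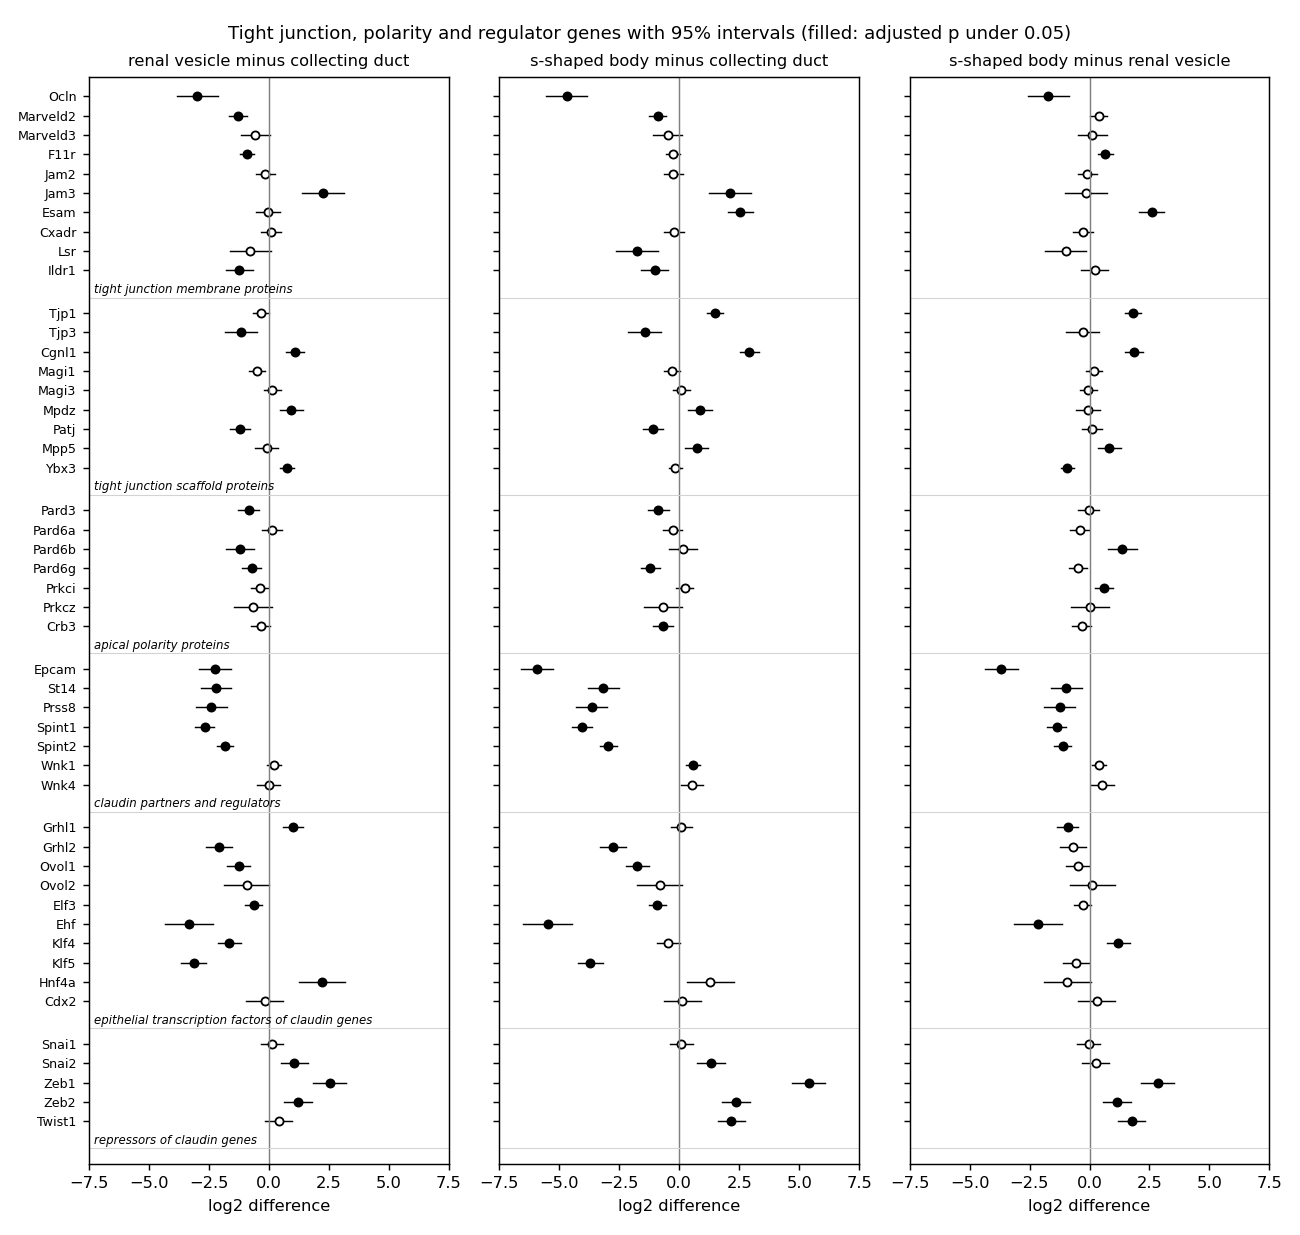
Log2 differences in the 3 comparisons of structures for tight junction membrane, scaffold and polarity proteins, claudin regulators and transcription factors, 1 line per gene, with 95% confidence intervals and filled circles where the adjusted p was under 0.05. Ocln, Epcam and the membrane proteases lay below 0 in both comparisons with collecting duct, whereas Tjp1, Esam and Zeb1 lay above 0 in s-shaped body.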

How the data were processed

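Transcripts were measured on Affymetrix MOE430A arrays, 3 per structure, after 2 rounds of T7 amplification, per the labels' protocols. The authors deposited linear intensity values, 1 per probe set and array, and the submitters' processing notes name GCOS without a version or algorithm. The mean without the outer 2% of probe sets lay between 499.9 and 500 on every array, and array medians between 112.2 and 144.8. Arrays give no counts, so their number limits the precision.

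Values were raised by a pseudocount of 26, which is their 20th percentile, then put on a log2 scale and quantile normalized. Two-sided tests were run with limma 3.58.1 under R 4.3.3 (lmFit, eBayes with intensity trend) in 1 fit of all 9 arrays, over the 22626 probe sets left after 64 controls, with no filter on dim probe sets. Benjamini-Hochberg adjustment was done per comparison, with a threshold of 0.05. The brightest probe set (highest mean log2 value) stood for its gene. Names came from the platform annotation of 2016: 20380 probe sets had exactly 1 symbol, 691 several and 1555 none. All claudins were named, with up to 4 further genes per list from among those with the smallest F test p, a few fixed junction genes, and up to 3 nearest profiles per claudin. Not all genes of small F test p were described above, for example Klf5 and Ybx3. Some markers, and Grhl1, Hnf4a and Snai1, were named whatever their rank. Members and lists were chosen with earlier results of these data known. The fit was tested on simulated data. Alternatives covered the pseudocount, scaling, filter, probe set rule, array weights, fold minimum, replicate block and left-out arrays.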

Additional observations from a re-analysis of the deposited data

How the results depend on the processing

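Of 675 claudin differences recomputed under the alternatives, 629 kept their side of the threshold, and their sign where called, 32 lost a call and 14 gained one. No called difference changed sign. With the mean of all probe sets of a gene, 1 claudin was higher in s-shaped body than in collecting duct instead of 3. Between the nephron stages 5 claudins instead of 3 were lower with the filter on dim probe sets, with array weights, and without renal vesicle replicate 3 and collecting duct replicate 2 together. Among the tight junction and polarity genes, a minimum of 2-fold left 2 of 4 higher in renal vesicle than in collecting duct, 4 of 7 in s-shaped body than in collecting duct and 4 of 7 between the nephron stages. Leaving out 1 array at a time gave 1 to 3 claudins higher in s-shaped body than in collecting duct (1 without s-shaped body replicate 1), 1 to 5 lower between the nephron stages (1 without renal vesicle replicate 2 or s-shaped body replicate 2, 5 without renal vesicle replicate 3), and 4 to 7 tight junction genes higher in s-shaped body than in collecting duct (4 without s-shaped body replicate 2). Correlations of deviations were -0.04 to 0.10 between same-numbered arrays and -0.09 to 0.10 between differently numbered arrays. They showed no clear pairing by replicate number, but cannot exclude shared embryos or a shared batch. With the replicate number as a block, 1733 probe sets were higher and 1665 lower in renal vesicle than in collecting duct, and in s-shaped body against renal vesicle Cldn4 gained a call (-0.90, adjusted p = 0.029) and Cldn11 lost one (-0.87, adjusted p = 0.052). Dim probe sets, such as those of Cldn10 and Cldn11, limit what can be detected.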
